A study of Mus musculus with 6 samples.

Results

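DNA methylation was examined at 9 mouse genes of the interferon pathway, namely Irf1, Irf2, Irf3, Irf4, Irf5, Irf7, Irf8 and Irf9, which encode interferon regulatory factors, and Tlr12, which encodes a toll-like receptor. Every cytosine inside these genes or within 2 kb of them was taken if it had at least 10 reads in all 6 libraries. This gave 144 of the 232840 cytosines of chromosomes 1 to 19 and X that met the same minimum. The genes were chosen by measured values, namely the methylation levels of the spermatid library against the cell lines at Irf7 and Tlr12, so levels in spermatids are described here without a test. Positions are on mm10 (RefSeq GRCm38.p6), and the strand of each gene tells its start from its end.

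The 6 libraries were made by reduced representation bisulfite sequencing (RRBS), in which DNA is cleaved at CCGG by MspI, size-selected, treated with bisulfite and sequenced. Androgenetic haploid embryonic stem cells (AG-haESCs) come from embryos with a paternal genome only and hold a single chromosome set. There were 2 wild-type lines (WT, titled AGH-OG3 at passage 31 and AGH-2 at passage 18) and 3 double-knockout lines (DKO, passages 32, 31 and 29). The DKO lines are labelled as lacking both the IG-DMR and the H19 DMR, which control imprinting at Dlk1-Meg3 and at H19-Igf2; these deletions were not tested here. All 5 lines were C57BL/6, kept on a feeder layer in ES medium to which 2i, inhibitors of kinases that promote differentiation, had been added. The control was 1 library of round spermatids, the haploid germ cells that follow meiosis in the testis, also C57BL/6 and without a replicate. The labels do not say that the lines came from separate embryos, and the DKO replicates 2 and 3 carry the names OG3 and AGH-2 in their titles, so tests measure the spread between these lines only. Nor do they say how the spermatids were purified.

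Interferon regulatory factors share a helical DNA-binding domain that reads GAAA repeats, the core of the interferon-stimulated response element. Toll-like receptors sense microbial molecules and signal through adaptor proteins to kinases, which activate Irf3, Irf5 or Irf7 and so switch on type I interferon genes. Secreted interferon then acts through receptors and JAK-STAT signalling, in which Irf9 takes part. Methylation of CpG cytosines in a promoter is usually associated with silence of the gene, and promoters inside CpG islands usually stay free of it.

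The promoter sequences of 4 genes show how far the family differs in CpG content, and each is printed from 250 bases before to 50 bases after the RefSeq start, in the direction of the gene, with every CpG in capitals. Irf7 was methylated at its start in spermatids, Irf9 in part, Tlr12 had no measured promoter, and Irf1 was unmethylated at its measured promoter cytosines.
Irf7: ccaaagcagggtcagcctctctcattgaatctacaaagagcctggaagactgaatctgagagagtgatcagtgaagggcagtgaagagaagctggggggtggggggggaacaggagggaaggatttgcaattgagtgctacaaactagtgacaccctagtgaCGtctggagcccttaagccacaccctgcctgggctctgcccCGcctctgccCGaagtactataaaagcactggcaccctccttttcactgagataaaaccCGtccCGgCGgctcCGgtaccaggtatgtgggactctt
Irf9: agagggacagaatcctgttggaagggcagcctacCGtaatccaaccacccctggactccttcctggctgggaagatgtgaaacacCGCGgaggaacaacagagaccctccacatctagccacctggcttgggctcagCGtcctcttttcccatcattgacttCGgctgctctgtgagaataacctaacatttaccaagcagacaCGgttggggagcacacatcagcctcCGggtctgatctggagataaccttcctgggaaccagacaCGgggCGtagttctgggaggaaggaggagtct
Tlr12: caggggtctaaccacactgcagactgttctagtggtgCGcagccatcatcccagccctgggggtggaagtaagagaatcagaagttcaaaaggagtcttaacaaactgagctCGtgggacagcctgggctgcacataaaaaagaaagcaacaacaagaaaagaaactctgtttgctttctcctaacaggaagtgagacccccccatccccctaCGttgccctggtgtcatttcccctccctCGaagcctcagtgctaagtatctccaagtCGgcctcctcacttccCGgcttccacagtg
Irf1: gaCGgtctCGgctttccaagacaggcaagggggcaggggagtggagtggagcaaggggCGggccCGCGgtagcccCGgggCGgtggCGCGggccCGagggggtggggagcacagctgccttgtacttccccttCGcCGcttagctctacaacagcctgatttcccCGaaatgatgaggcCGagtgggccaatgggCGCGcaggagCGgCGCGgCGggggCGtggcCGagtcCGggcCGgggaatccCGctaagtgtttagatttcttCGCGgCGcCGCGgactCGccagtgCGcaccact
They lie at chr7:141266375-141266674 (Irf7, minus strand), chr14:55603735-55604034 (Irf9, plus), chr4:128618570-128618869 (Tlr12, minus) and chr11:53769764-53770063 (Irf1, plus). Irf7 had 7 CpGs, a GC content of 55% and a ratio of observed to expected CpGs of 0.310. Tlr12 had 6 CpGs, 52.3% GC and a ratio of 0.297, and Irf9 had 9 CpGs, 55.3% GC and a ratio of 0.392. Irf1 had 32 CpGs, 69.3% GC and a ratio of 0.912. A promoter was called CpG-rich, as a stand-in for a CpG island, at 50% GC or more and a ratio of at least 0.6. By this rule Irf1, Irf2, Irf3, Irf5 and Irf8 were CpG-rich and Irf4, Irf7, Irf9 and Tlr12 were not, while 34.4% of 26794 RefSeq promoters were CpG-rich. The ratios of the others were 0.673 (Irf2), 0.712 (Irf3), 0.398 (Irf4), 0.889 (Irf5) and 1.03 (Irf8). Irf2 and Irf3 changed sides with a stricter definition, as a GC content of 55% and a ratio of 0.75 left Irf1, Irf5 and Irf8 in the CpG-rich class.

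Letters known from interferon signalling were also searched on both strands of the 9 sequences. The response element core, a pair of GAAA on the same strand with 2 bases between them, occurred in Irf2 at -241 from the start and in 3.52% of all RefSeq promoters. The STAT motif TTCNNNGAA occurred in Irf1, Irf2 and Irf8 and in 8.47% of all promoters. TATAAA occurred at -26, -29 and -31 from the start of Irf4, Irf7 and Irf8 and in 14.2% of all promoters. CCGG, the MspI site that decides what RRBS can read, was found in all members but Irf3 and in 53% of all promoters. It occurred 3 times in Irf1 and a single time in Irf9 and Tlr12.

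Each gene was divided by its strand into an upstream window (the part of the 2 kb flank before the promoter window), a promoter window (1000 before to 500 after the start), a body window (the rest of the gene) and a downstream window (2000 bases past the end). Of the 144 cytosines, 88 lay in promoters, 50 in bodies, 2 upstream of Irf2 and 4 downstream of Tlr12. Irf1 had 46, Irf2 31, Irf4 19, Irf5 17, Irf8 16, Irf9 6, Tlr12 6 and Irf7 3. Irf3, the kinase-activated factor that starts the interferon response, had none, although single libraries covered between 2 and 17 of its cytosines. Median depth over the member cytosines lay between 398.5 and 577.5 reads per library. The shallowest cytosines kept, Irf4 at -166 and +12028, had 10 reads in their weakest library. The nearest ones lost were Irf2 at +3386, with 8 reads, 100% in spermatids and 0% in every line, and Irf9 at -21, with 9 reads and 0% in all 6 libraries.

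Methylation of the members in spermatids was close to all or none, as it was over all measured cytosines. Of the 144 cytosines, 24 (16.7%) were above 90% methylated, 117 (81.2%) were below 10% and 3 (2.08%) lay between. Of all 232840 cytosines, 45982 (19.7%) were above 90%, 174267 were below 10% and 12591 lay between. Both cytosines upstream of Irf2 and all 4 downstream of Tlr12 were above 90%, as were 13 of 50 in bodies and 5 of 88 in promoters. The 5 promoter cytosines were the 3 of Irf7 and 2 of Irf9. Spermatids were called higher where their level lay above that of all 5 lines and at least 25 points above the mean of the lines. This held for 26 member cytosines (18.1%), against 21.2% of all cytosines. No member cytosine was called lower, against 0.333% of all cytosines.

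**Figure D1:**
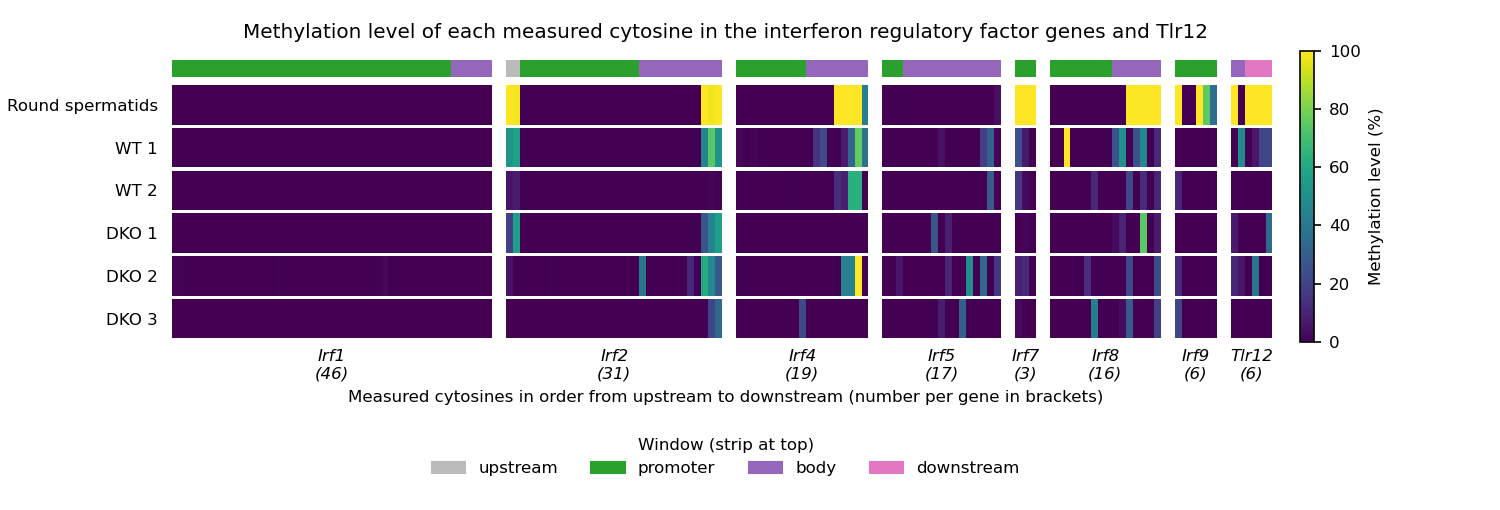
Methylation level (colour, 0 to 100%) of the 144 member cytosines in each of the 6 libraries, ordered within each gene from upstream to downstream, with the window of each cytosine in the strip at the top. Spermatids are yellow at all 3 cytosines of Irf7, at the end of the Irf4 and Irf8 blocks, at both ends of the Irf2 block and at 5 of 6 cytosines of Tlr12, and dark over the whole of Irf1 and Irf5.

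Irf7, the factor that amplifies type I interferon production, was fully methylated at its start in spermatids and weakly methylated in the lines. The gene lies on the minus strand at chr7:141263183-141266499, so its start is the end with the higher coordinate, and the RefSeq promoter table puts the start 75 bases further inside. All 3 measured cytosines lay 101, 133 and 298 bases after the gene's outer start, which is 26, 58 and 223 bases after the start in the table. Full methylation at Irf7 was therefore within the promoter window, on the transcribed side of the start. No cytosine before the start met the minimum in all libraries.

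Summed over these cytosines, the promoter window stood at 99.9% in spermatids (2320 reads, Wilson 95% interval 99.6% to 100%). The WT lines gave 11.96% and 4.30% and the DKO lines 0.557%, 8.33% and 1.07% (here and below in the order of their replicate numbers), a mean of 5.24% ± 4.87 (SD, n = 5). The 5 lines thus lay far below spermatids and spread over more than 10 points among themselves. Reads were counted once for every cytosine they span and PCR copies carry no mark, so the intervals hold counting error only and are too narrow.

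The 3 cytosines of Irf7 differed from each other in the lines. The cytosine at +101, in the last CpG of the printed sequence and inside a CCGG, showed 24.3% and 16.2% in the WT lines, 0.0880%, 9.11% and 2.46% in the DKO lines and 100% in spermatids. Every DKO line was below both WT lines there. The cytosine at +133 showed 6.78% and 2.53% in the WT lines, 1.30%, 11.96% and 0.0440% in the DKO lines and 99.7% in spermatids. The groups of lines overlapped at this position. At +298 spermatids had 100% over 635 reads, DKO replicate 2 had 0.202% and the other 4 lines had 0%. With their own coverage alone, spermatids had a further promoter cytosine, and all 4 were above 90%.

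Tlr12, an endosomal receptor that in mice recognises profilin of parasites, was fully methylated beyond its end rather than at its start. The gene lies on the minus strand at chr4:128615446-128618619, so the cytosines at the lower coordinates follow its 3′ end. The 4 cytosines at 128614658, 128614637, 128614631 and 128614621 lay 788, 809, 815 and 825 bases past the gene's end, each at 100% in spermatids over 90 reads. The downstream window, which holds them, was at 100% in spermatids (Wilson 95% interval 98.9% to 100%). The WT lines showed 10.8% and 0.0293% and the DKO lines 8.41%, 9.78% and 0%, with a mean over lines of 5.81% ± 5.36 (SD, n = 5). No other gene of the RefSeq table lies within 2 kb of Tlr12.

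The Tlr12 promoter could not be judged, since no cytosine in it reached 10 reads in spermatids or in WT replicate 2 and DKO replicate 2. WT replicate 1 had 2 promoter cytosines with 10 reads, DKO replicate 1 had 3 and DKO replicate 3 had 5. In the body, 2 cytosines 11 bases apart were measured in all 6 libraries and read opposite ways. At +645 spermatids had 100% over 76 reads and both WT lines had 0%, while the DKO lines had 6.81%, 10.9% and 0%. At +656 spermatids had 0% over 63 reads, WT replicate 1 had 47.4%, DKO replicate 2 had 5.82% and the other lines had 0%.

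**Figure D2:**
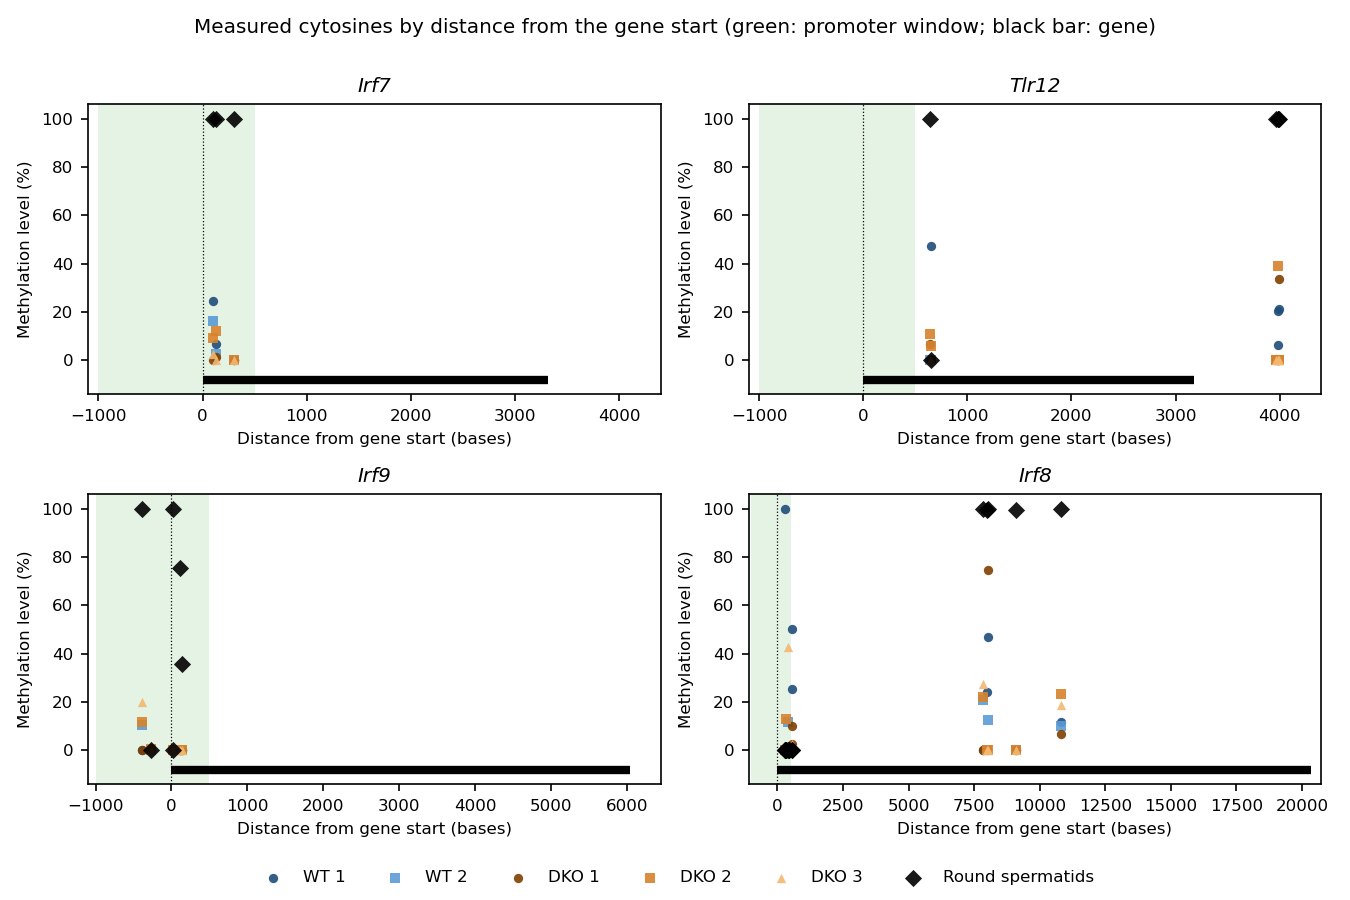
Methylation level (%) of each measured cytosine against its distance in bases from the gene's outer start, for Irf7, Tlr12, Irf9 and Irf8, with the promoter window shaded and the gene drawn as a bar. Spermatids (diamonds) are at the top of the shaded window in Irf7, past the end of the gene in Tlr12, at mixed levels around the start in Irf9 and at the top only in the body in Irf8.

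Irf9, a factor that acts in the response to secreted interferon, had a mixed promoter in spermatids. Its 6 measured cytosines lay between -388 and +134 of the start at 55603985 on chromosome 14. Spermatids had 100% at -388 over 64 reads, a position inside the neighbouring gene Rnf31, and 0.122% at -275. The last 2 CpGs of the printed sequence, at +18 and +23, stood at 0% and 100%, each over 116 spermatid reads. Whether so sharp a change over 5 bases is methylation, or a difference in sequence or alignment, was not tested. Further in, spermatids had 75.4% at +111 (156 methylated and 51 unmethylated reads) and 35.7% at +134 (74 and 133 reads). From +18 to +134 the lines held no methylated read except for 0.202% at +23 in DKO replicate 3. Some lines were shallow at +111 and +134, so low levels there could be missed. DKO replicate 2 had 11 and 12 reads, DKO replicate 3 had 13 at each and WT replicate 2 had 23 at each.

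Because the depth differed between its cytosines, the level of the Irf9 promoter depended on how it was averaged. From summed reads it was 17.6% in spermatids, against 0.0593% and 5.29% (WT) and 0%, 4.89% and 4.39% (DKO), a difference that missed the rule of 25 points. Averaged over cytosines it was 51.9% in spermatids and 1.43% ± 1.43 (SD, n = 5) in the lines, which met the rule. Of these 6 cytosines the lines had methylated reads almost wholly at -388, with 0.252% and 10.3% (WT) and 0%, 11.8% and 20.1% (DKO).

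Members with a CpG-rich promoter were unmethylated in spermatids at the measured cytosines of the promoter window. Irf1, Irf2, Irf5 and Irf8 had 69 promoter cytosines, all below 10% in spermatids, with a highest level of 0.487%. The class was set on the 300-base sequence, which holds 22 of the 40 cytosines of Irf1 and 3 of the 17 of Irf2. It holds none of those measured at Irf5 or Irf8. Irf4, Irf7 and Irf9, without a CpG-rich promoter, had 19 promoter cytosines, of which 5 were above 90% and 12 below 10%. Of these 5, 3 belong to Irf7, which was chosen by its level, so the division among the members is no test. Low CpG content did not go with methylation in each case, because all 10 promoter cytosines of Irf4 were unmethylated in spermatids. From summed reads the promoters stood at 0.0124% (Irf1), 0.0266% (Irf2), 0.0440% (Irf4), 0.0914% (Irf5) and 0.0342% (Irf8) in spermatids. These levels did not differ from those of the lines by 25 points in either direction.

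Over all genes, high levels in spermatids were more frequent among promoters without a CpG-rich sequence, although the median of that class was 0.0326%. Of 7506 promoter windows with at least 3 measured cytosines, 1.99% were called higher in spermatids, beside 1 of the 7 measured member promoters (Irf7, which was chosen for this difference). Among 5708 CpG-rich promoters 0.175% were called higher and 0.0526% were above 90% in spermatids. Among 1798 other promoters 7.73% were called higher and 5.39% were above 90%. The mean level of CpG-rich promoters was 0.319% in spermatids and 0.274% ± 0.0962 (SD, n = 5) in the lines. For the other promoters it was 7.49% in spermatids and 2.66% ± 0.830 (SD, n = 5) in the lines. Irf7 is among the 97 promoters of that kind, but since its level chose it nothing is read from its place there.

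**Figure D3:**
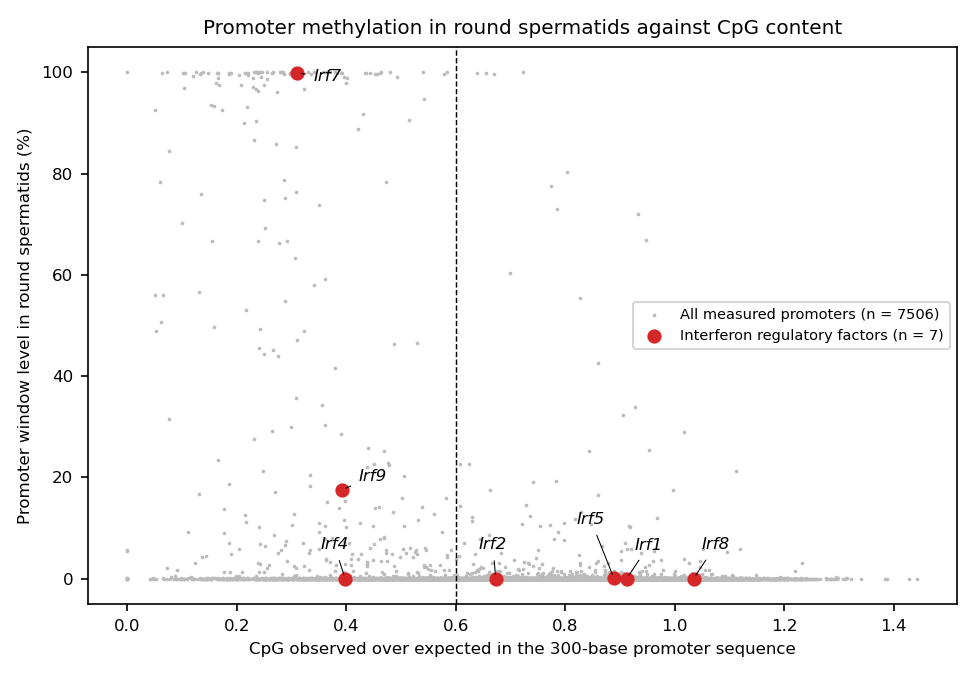
Promoter window level in spermatids (%) against the ratio of observed to expected CpGs in the 300-base promoter sequence, for 7506 promoters (grey) and the 7 measured interferon regulatory factors (red). Irf7 sits at 99.9% left of the dashed line at 0.6, Irf9 at 17.6% and Irf4 near 0% on the same side, and Irf1, Irf2, Irf5 and Irf8 near 0% on the right.

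Irf1, an activator first described at the interferon beta gene and itself induced by interferon gamma, was the least methylated member. This holds for its measured cytosines, which lay between -370 and +557. Its 40 promoter cytosines gave 0.00799% and 0.0228% (WT), 0.0111%, 0.0346% and 0.0211% (DKO) and 0.0124% over 64327 reads (spermatids). Its body window, with 6 cytosines between +526 and +557, was at 0.0437% or below in the lines and at 0.0133% in spermatids. At 22 of its 46 cytosines no methylated read was found in any library. With its own coverage, WT replicate 1 averaged 5.89% over 17 body cytosines, 1 of them above 90%. DKO replicate 2 averaged 3.07% over 15, and the other lines 0.0347% or less.

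Irf2, which binds the same elements as Irf1 and can repress them, had a clean promoter with methylated cytosines on either side. Spermatids had 100% and 98.4% at -1961 and -1948. WT replicate 1 had 51.6% and 57.6% there, and DKO replicate 1 had 19.5% and 55.6%. WT replicate 2 and DKO replicates 2 and 3 stayed at 7.94% or below. The 17 promoter cytosines gave 0.0164% and 0.01502% (WT) and 0.0258%, 0.0232% and 0.0147% (DKO). The lncRNA Gm16675, on the opposite strand, covers 16 of the measured cytosines, namely the upstream pair and most of those in the promoter.

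The body of Irf2 was split in spermatids. The 9 cytosines between +1605 and +1718 were at 0.134% or below, while those at +42132, +81028 and +81039 were at 100%, 97.9% and 100%. At +42132 the WT lines had 44.9% and 0% and the DKO lines 25.9%, 61.0% and 0%. At +81028 the levels were 74.0% and 1.16% (WT) and 44.8%, 47.1% and 20.3% (DKO). All lines fell short of spermatids, and WT replicate 2 was nearly unmethylated at each of them. DKO replicate 2 alone had 40.5% at +1605, with 309 methylated reads.

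Irf4, a factor of lymphocytes and dendritic cells, was unmethylated at its promoter and methylated deep in its body. Spermatids were at 100% over 76 reads at each of 4 cytosines from +12028 to +12077 and at 42.5% at +15318. At +12077 WT replicates 1 and 2 had 76.5% and 63.6%, DKO replicate 2 had 100% over 18 reads, and DKO replicates 1 and 3 had 0%. This is the only one of the 24 cytosines above 90% in spermatids that was not called higher, since DKO replicate 2 reached the same level. The body window gave 20.3% and 8.68% (WT), 0.0527%, 1.90% and 0% (DKO) and 18.8% (spermatids). In the promoter, DKO replicate 3 had 22.0% at -31 (173 methylated reads), where the other 5 libraries had 0.222% or less.

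Irf8, which directs myeloid and dendritic cell development, had the highest CpG ratio of the members and combined an unmethylated start in spermatids with a methylated body. Spermatids had 0.0342% in the promoter window and 91.2% in the body window (Wilson 95% interval 89.9% to 92.3%). The body gave 26.4% and 5.78% (WT) and 22.5%, 7.34% and 6.66% (DKO), so all 5 lines were lower than spermatids. Within it, the cytosines at +551 and +560 were at 0% in spermatids, and the 5 from +7843 to +10806 were between 99.4% and 100%. In the lines the promoter window was at 4.99% and 2.81% (WT) and 0%, 2.61% and 11.6% (DKO), all but DKO replicate 1 above spermatids by less than 25 points.

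Irf5, a factor of myeloid cells downstream of toll-like receptors, had no methylated cytosine in spermatids. Its 17 cytosines stayed at 3.87% or below there, although the lines reached 49.4% at single positions. The body window gave 0.191% (spermatids), 2.80% and 0.679% (WT) and 4.06%, 11.8% and 1.89% (DKO). The RefSeq promoter table places the start 495 bases inside the gene's outer start, so all 3 cytosines of the promoter window precede it.

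Of the 13 member windows with at least 3 measured cytosines, 3 were called higher in spermatids: the Irf7 promoter, the Irf8 body and the Tlr12 downstream window. Over all 16920 windows 18.8% were called higher, with 1.99% of promoters, 34.4% of bodies and 23.8% of downstream windows. No member window was called lower, against 0.136% of all windows. With levels averaged over cytosines 5 member windows were called, the Irf4 body (a difference of 37.5 points) and the Irf9 promoter (50.4 points) being the additions. Where 5 cytosines were required the Irf8 body alone remained, since Irf7 and the downstream window of Tlr12 have 3 and 4. Over all genes, body and downstream windows were called more often than promoters, so the Irf8 and Tlr12 windows belong to classes in which such a difference was common.

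The 24 member cytosines above 90% in spermatids were at low and uneven levels in the lines. Their mean was 23.2% and 9.80% (WT) and 13.6%, 19.1% and 5.10% (DKO), or 14.1% ± 7.20 (SD, n = 5). The 45982 cytosines of this kind in the whole data had means between 14.2% and 27.0%, 20.2% ± 5.34 (SD, n = 5). At 20 of the 24 (83.3%, against 78.9% of all) a line had no methylated read. At 8 (33.3%, against 45.9%) a line reached 50%, and at none (against 0.394%) did all 5 lines. At 7 (29.2%, against 21%) every line stayed below 20%.

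**Figure D4:**
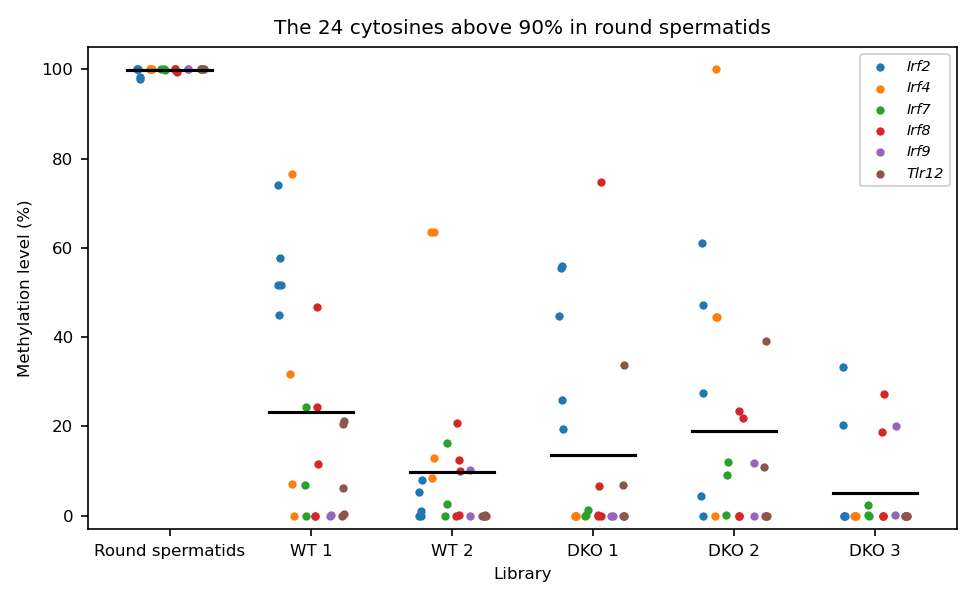
Methylation level (%) in each library of the 24 member cytosines above 90% in spermatids, coloured by gene, with the mean of each library as a black bar. The means of the 5 lines run from 5.10% to 23.2%, and Irf2 and Irf4 supply most of the points above 40%.

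Methylated reads also appeared in the lines where spermatids had few or none. Of the 117 member cytosines below 10% in spermatids, 13 (11.1%) had at least 20% in a line, against 8.09% of all such cytosines. In 12 of the 13 (92.3%) this was so in 1 line only, against 59.9% of all such cytosines. The highest was Irf8 at +288, a promoter cytosine at 100% over 193 reads in WT replicate 1 and at 0% in the other 5 libraries. Its neighbours at +284 and +286, read to the same depth in each library, were at 0% in all 6. The deposited counts do not show whether such a lone position is methylated or differs in sequence or alignment, which was not tested. The exception with more than 1 line was Irf5 at +2013, with 29.9% and 27.8% in WT replicates 1 and 2 and 0% in all 3 DKO lines and in spermatids.

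Whether deletion of both imprinting control regions altered these genes was asked by comparing DKO with WT lines. No member window was called different. edgeR's quasi-likelihood test called 0 of 17599 windows at an adjusted p under 0.05 (0% in each direction) and 0 of the 13 member windows, and an unadjusted p under 0.05 was reached by 418 windows (2.38%) and by 1 member window. limma on logit levels also called 0 windows, with 632 at an unadjusted p under 0.05. With 2 and 3 lines that vary this much, a miss does not show that the groups were equal.

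The member window with the lowest p was the Irf4 body, at 14.5% in WT and 0.649% in DKO lines on average (log2 odds ratio -6.64, unadjusted p = 0.0289, edgeR adjusted p = 1). From summed reads all 3 DKO lines were below both WT lines. Averaged over its 9 cytosines the groups overlapped, with 21.1% and 16.5% (WT) and 0.0212%, 21.0% and 0% (DKO). The Irf7 promoter was at 8.13% in WT and 3.32% in DKO lines (log2 odds ratio -2.24, unadjusted p = 0.197, edgeR adjusted p = 1), and the groups overlapped. The downstream window of Tlr12, with 5 cytosines when spermatids are left aside, was at 5.68% in WT and 21.5% in DKO lines (log2 odds ratio 4.59, unadjusted p = 0.164, edgeR adjusted p = 1). That difference came with the added cytosine, 691 bases past the gene's end, which showed 12.5% and 0.826% (WT) and 100%, 77.02% and 50.5% (DKO), without overlap. Over the 4 cytosines shared with spermatids the means were 5.42% in WT and 6.06% in DKO lines. Without WT replicate 1 the log2 odds ratio for this window was 8.76, and without WT replicate 2 it was 1.21. Each of these fits has a single WT line, so the WT group has no spread. WT replicate 2 was at passage 18 and the DKO lines at passages 29 to 32, so the first value cannot tell genotype from passage. With each DKO line left out in turn, edgeR's unadjusted p for the Irf4 body ran from 0.00791 (without replicate 2) to 0.141 (without replicate 1). Its cytosines from +12028 to +12077 had only 10 or 18 reads in DKO replicate 2. With at least 20 reads, 5 cytosines of this window were left (log2 odds ratio -5.92, edgeR unadjusted p = 0.224). With at least 50 reads, too few were left for the window to be tested.

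**Figure D5:**
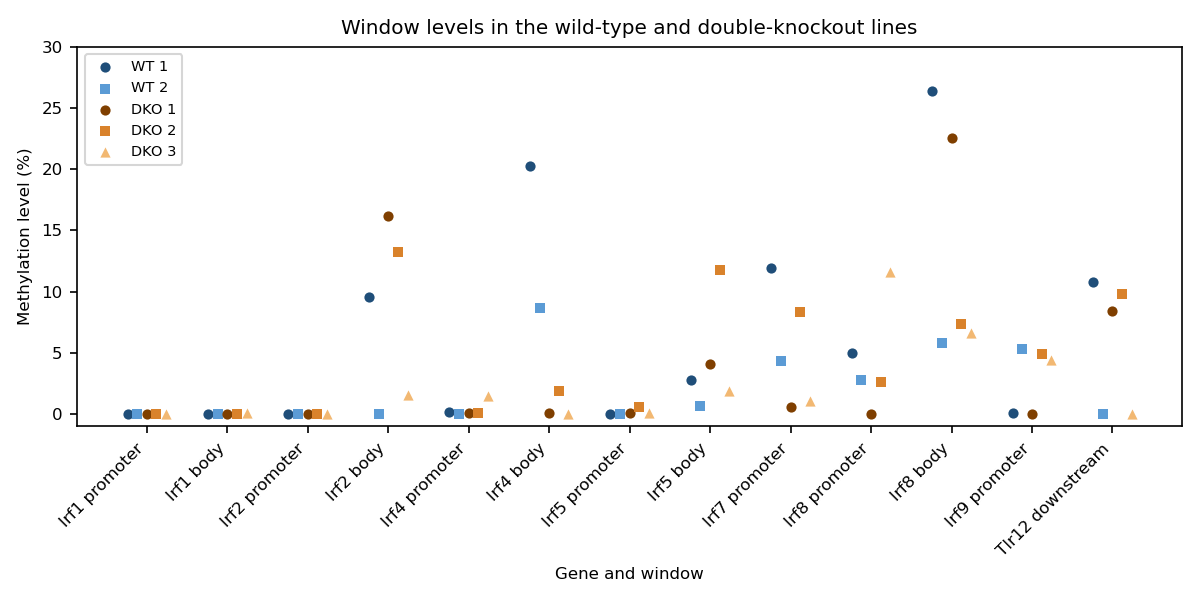
Level (%) of the 13 member windows in the 2 WT lines (blue) and 3 DKO lines (brown to orange). WT and DKO points interleave in most windows. Levels are from summed reads, by which both WT lines lie above all 3 DKO lines in the Irf4 body, at 20.3% and 8.68%; averaged over cytosines they overlap.

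Averaged over the 144 cytosines, the WT lines had a level of 4.13% ± 3.12 (SD, n = 2) and the DKO lines 2.90% ± 1.48 (SD, n = 3). The difference of -1.22 points was within the spread of the lines (two-sided exact permutation test, p = 0.6, where 10 splits allow no p below 0.1). It turned to 0.978 points without WT replicate 1 (exact p = 0.75). For the 8 genes with measured cytosines, the same exact test on the mean over each gene's cytosines gave p-values between 0.3 and 1. For Irf7 the WT lines had 8.31% ± 2.92 (SD, n = 2) and the DKO lines 2.80% ± 3.72 (SD, n = 3; exact permutation p = 0.3). Tlr12 was at 7.98% ± 11.3 (SD, n = 2) and 5.36% ± 4.81 (SD, n = 3) (exact permutation p = 0.9).

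Single cytosines without overlap between the groups were few. DKO lines were all higher at 1 (0.694%, against 2.36% of all cytosines) and all lower at 4 (2.78%, against 3.39%). The higher one, Irf1 at +542, rested on 1 methylated read in each line. Of the lower ones, Irf1 at +557 was at 0.0549% and 0.0421% in WT lines and 0% in DKO lines, and Tlr12 at 128614658 was at 0.369% and 0.117% against 0%. The remaining lower ones were Irf5 at +2013 and Irf7 at +101, given above. With a line fewer there is less to overlap, and the counts rose among the members and over all cytosines. Higher and lower ones numbered 4 and 16 without WT replicate 1 (2.76% and 11%, against 5.41% and 10.8% of all) and 2 and 22 without WT replicate 2 (1.38% and 15.2%, against 3.54% and 16.4%). They numbered 11 and 8 without DKO replicate 1 (7.19% and 5.23%, against 5.8% and 4.45%), 4 and 9 without DKO replicate 2 (2.78% and 6.25%, against 4.09% and 6.13%) and 5 and 5 without DKO replicate 3 (3.38% each, against 6.69% and 4.41%).

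Promoters of other genes of the pathway were mostly unmethylated, as were most promoters. Of 92 listed genes, 22 had a measured promoter window: 1 toll-like receptor (of 11), 3 adaptors and kinases (of 12), 3 nucleic acid sensors (of 11), 7 receptors and JAK-STAT genes (of 15), 7 interferon-stimulated genes (of 30), 1 binding partner or relative of the factors (of 7) and none of 6 interferons. None was called higher or lower in spermatids, where levels ran from 0% to 15.4%, and a count of 0 among 22 is near the 1.99% over all promoters. The median difference from the lines was -0.00913 points, beside -0.00702 over all promoters. DKO and WT lines did not overlap at 3 of the 22, with DKO higher at 1 (12.8% of all promoters) and lower at 2 (4.13%).

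Of these, Bst2, an interferon-stimulated gene whose product tethers budding virus, gave 6.06% and 2.06% (WT), 0.0149%, 0.0391% and 0.00910% (DKO) and 0.0336% (spermatids). The edgeR test gave it an unadjusted p of 0.000282 and an adjusted p of 0.775, so it was not called. The others were at trace levels. Tbk1, the kinase that activates Irf3 and Irf7, was at 0.0119% and 0.00813% in WT lines and 0% in DKO lines. Ifnar2, a chain of the type I interferon receptor, was at 0.0123% and 0.0132% in WT lines and 0.0408%, 0.0411% and 0.0132% in DKO lines.

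The genes most like Irf7 were sought among 7499 other promoter windows by the mean absolute difference in level over the 6 libraries. The nearest were Gm38844 (2.43 points), Gm51602 (2.61 points) and Ano7 (3.001 points), with 99.8%, 100% and 97.4% in spermatids. Since the Tlr12 promoter was not measured, its downstream window was compared with 1106 others, of which those of Gm51742 (2.08 points), Sox15 (2.51 points) and Smkr-ps (3.03 points) were nearest. These 3 stood at 99.9%, 100% and 92.2% in spermatids and at 3.38%, 3.39% and 4.62% on average in the lines.

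The lines held 197728785 to 255726544 reads over cytosines and the spermatid library 293920118. Of the marker genes listed for cell types, 2 of 8 pluripotency, 2 of 8 spermatid and 2 of 8 feeder fibroblast promoters were measured, and none of 8 testis somatic or 8 leukocyte promoters. In spermatids these stood between 0% and 0.344%, while the lines averaged up to 12.1% at a spermatid marker and 0.0749% or less at the pluripotency and feeder markers. No cell type was assigned from these levels, and the share of other cells in any library was not tested.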

How the data were processed

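The members and gene lists were chosen with earlier results of these data known. Per the labels' protocols, MspI fragments were joined to methylated adapters, size-selected, bisulfite-treated and amplified, and Bismark 0.12.2 and mm10 appear in the submitters' processing notes. Whether reads were trimmed or duplicates removed is not given in the sources used here. For each position the authors deposited a count of methylated and a count of unmethylated reads and the level as a fraction from 0 to 1, which matched the counts within 1e-09. Of 34428 positions inside RefSeq promoter sequences, 34302 (99.6%) were the cytosine of a CpG, on either strand, and 126 lay at a sequence's edge.

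Window levels were computed from summed reads over cytosines with at least 10 reads in every compared library, with at least 3 such cytosines per window. Gene starts and ends came from the RefSeq gene table and strands from its promoter table (GRCm38.p6). Exons, introns and UTRs were not assigned. All 9 members and the nearest 3 windows to Irf7 and Tlr12 were named. Pathway genes were named if called in spermatids, or for the largest difference without overlap in each group.

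Spermatids were compared with the lines by size only. DKO and WT lines were compared with edgeR 4.0.16 (R 4.3.3, quasi-likelihood test) on both read counts. The model had a term per library and a common dispersion, with Benjamini-Hochberg adjustment over all windows. It was also run on simulated counts with a chosen spread between lines. That run does not give the error rate or power of the test at the spread of the real lines. limma 3.58.1, other read and cytosine minimums, window widths, averages and each line left out were tried.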

Additional observations from a re-analysis of the deposited data

How the results depend on the processing

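Of 145 alternative values of the main results, 113 were labelled the same, 31 moved and 1 changed sign. Counts and percentages were labelled the same if they stayed within a set ratio of the main value, and the mean difference if its sign held. Of 148 values for single windows, 139 moved by less than the spread of the lines and 9 by more. In 3, all of windows not called, the sign of spermatids minus lines changed: the Irf2 body (-5.02 to 15.8 points) and Irf2 promoter (0.00759 to -0.00717) with levels averaged over cytosines, and the Irf5 promoter (-0.0584 to 0.0498) without DKO replicate 2. The Irf7 promoter stayed between 93.5 and 96.3 points and the Tlr12 downstream window between 91.8 and 95.4 points above the lines, wherever they were measured; the Irf8 body ran from 29.5 to 86.9 points and the Irf9 promoter from 6.44 to 50.4 points. With at least 50 reads, 31907 of all cytosines were called higher in spermatids, 15 windows lower, and 0.115% of CpG-rich and 4.73% of other promoters higher. With 1 cytosine per window, 6278 windows were called higher, 66 lower, 5 of them higher among the members, and 0.502% of CpG-rich and 15.6% of other promoters higher. With 5 cytosines these were 1697, 7, 1, 0.0397% and 3.1%. Among CpG-rich promoters 0.09% were called with 500 bases on each side of the start and 0.105% with a difference of 50 points, which left 0 windows lower. Averaging over cytosines gave 5 member windows, and the stricter CpG definition gave 4.12% for other promoters. The cause was not tested where a value moved, other than the number of windows each setting leaves.

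With single lines left out, windows lower in spermatids numbered 21 to 43, member cytosines with all DKO lines higher 2 to 11 and lower 5 to 22, and the mean difference between DKO and WT over member cytosines ran from -3.32 to 0.978 points, with the sign turned without WT replicate 1. A block for the line names that WT and DKO titles share (a replicate block) left 1 residual degree of freedom and called 27 of 17599 windows, 16 higher and 11 lower in DKO, with 907 at an unadjusted p under 0.05 and none of the 13 member windows called (edgeR). Deviations of same-named lines from their group means correlated at r = 0.0702 (OG3) and 0.0397 (AGH-2) over 264133 cytosines, which are not independent. Pairs with other names lay between -0.0702 and 0.0294. With 2 WT lines their deviations mirror each other, so these values are not separate checks and cannot decide whether the lines are paired. The labels do not say whether the DKO lines came from these WT lines, so the names were used in this alternative only.

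Irf3 had no cytosine with 10 reads in all 6 libraries, and the Tlr12 promoter had none with 10 reads in spermatids. Whether depth or the fragments captured set this was not tested. A window without a methylated read still allowed at least 0.416% at Tlr12 in DKO replicate 3 (3 counts of 722). These 722 counts are the sum over 4 cytosines with 180 or 181 reads each. A read that spans several of them was counted at each, so the level allowed per read is higher.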

Other observations

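The counts below need 10 reads in the named library only. At Irf3, and in the body and downstream of Irf9, none of these positions met the minimum in all 6 libraries. At Irf3 spermatids had 3 promoter cytosines between -716 and -669 with a mean of 0.538% and a body cytosine at +2131 with 100%. At Irf9, 2 body cytosines at +2389 and +2416 and 1 downstream stood at 100%. In the Irf2 body 11 of 21 cytosines were above 90% in spermatids, including the 3 compared above. At Tlr12 all 5 downstream cytosines and 3 of 5 in the body were above 90% in spermatids, including 4 and 1 compared above. In WT replicate 1 the start of Irf3 was at 0% over 15 promoter cytosines, while 2 cytosines at -1829 and -1783 averaged 99.0%.

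Outside promoters, 2 body windows of the pathway list had an unadjusted p under 0.05 between DKO and WT lines (edgeR). They were picked by p-value from all measured windows of the list and are given after their values were seen. Over all 17599 windows 418 (2.38%) had an unadjusted p under 0.05. The body of Spib, a relative of the Irf4 and Irf8 partner Spi1, was at 5.14% and 2.72% in WT lines and 0% in the 3 DKO lines (edgeR, unadjusted p = 0.00305, adjusted p = 1). The body of Jak1, a kinase of the interferon receptors, was at 68.4% and 15.4% in WT lines and at 0.258%, 0.693% and 2.24% in DKO lines (edgeR, unadjusted p = 0.0140, adjusted p = 1). Neither was called.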
